A study of Mus musculus with 10 samples.

Results

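Presynaptic vesicle and release genes are the genes whose products fill synaptic vesicles with transmitter, hold them at the nerve terminal, fuse them with the plasma membrane when calcium enters, and take their membrane back. The set holds 42 mouse genes, picked by name for these roles, out of 50559 genes in the count table. All 42 passed the filter on low counts that left 29952 genes to be tested. They fall into 6 classes by role: transmitter loading (3 genes), vesicle membrane and tethering proteins (11), calcium sensors (7), SNARE fusion machinery and its regulators (7), active zone and priming (10), and endocytosis and recycling (4).

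In the cerebellum these genes are read as signs of neurons that have left the cell cycle and formed synapses. Granule cell precursors (GCPs) divide in the outer layer of the young cerebellum under Sonic hedgehog (SHH), leave the cycle, and become granule neurons, glutamatergic cells whose axons synapse on Purkinje cells. Glutamate is loaded into their vesicles by vesicular glutamate transporters, of which VGLUT2 (Slc17a6) prevails in young granule neurons and VGLUT1 (Slc17a7) in mature ones.

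RNA was taken from formalin-fixed, paraffin-embedded (FFPE) tissue of 3 groups of mice and sequenced as total RNA after removal of ribosomal RNA. The MYC/SMARCA4 group (n = 4) holds tumors that grew in CD1nu/nu recipients after transplantation of GCPs. Ages were 112, 96, 89 and 79 days for tumors 1 to 4. Part of the GCPs had lost SMARCA4, a subunit of the BAF chromatin remodelling complex, part overexpressed MYC, and only some carried both changes. The study's stains found SMARCA4 lost from every tumor cell, and MYC present in varying degree. The donors were Math1-creERT2::Smarca4fl/fl pups given tamoxifen, MYC came from a lentiviral vector, the transplanted cells were not sorted for either change, and the tissue punches could take host cerebellum along with tumor. The P7 cerebellum group (n = 3) holds cerebella of Math1-creERT2::Smarca4fl/fl mice aged 7 days, injected on day 3 with tamoxifen (0.4 mg), so that these controls carried the Smarca4 deletion in part of their Math1 lineage too. The SHH MB group (n = 3) holds medulloblastomas of Math1-cre::Smofl/wt mice, also labelled as 7 days old, in which Cre acts throughout the Math1 lineage. Age moves with the group: the MYC/SMARCA4 tumors grew in adult hosts and both other groups were 7 days old, so the age of the surrounding tissue and the tumor cannot be told apart. The comparisons of the MYC/SMARCA4 tumors with each other group share the 4 tumors, and each also shares a group with the comparison of SHH MB with P7 cerebella.

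The libraries held 5663491 to 9352109 counts, and the 42 genes were well covered: 2 of them had fewer than 20 counts in some library, the lowest being 6 counts of Slc17a6 in tumor 1. Levels are given as CPM, counts per 1000000 of the library size after TMM scaling, a scaling that assumes most genes alike between libraries. At 3 counts, taken as the floor, a library reached 0.304 to 0.737 CPM. Mitochondrial and rRNA-like genes took 4.25 to 7.94% of the counts in MYC/SMARCA4 tumors and 1.79 to 2.37% in the other libraries. Tumor 1 stood apart from the other tumors, so counts of calls and the genes called are also given without it. The summed level of 12 proliferation genes was 124, 2051, 2213 and 2012 CPM in tumors 1 to 4, and Mki67, a marker of dividing cells, read 45.2, 765, 932 and 707 CPM. Myc stood at 151, 365, 1574 and 1007 CPM in the tumors against 12.9 to 14.2 CPM in P7 cerebella and 33.4 to 45.4 CPM in SHH MB. Smarca4 counts were taken over the whole gene and do not read out the deletion. They stood at 207, 242, 135 and 236 CPM in the tumors and 219 to 279.7 CPM in P7 cerebella. In SHH MB they were higher, at 486 to 585 CPM. In these bulk samples, fewer cells of a type and less RNA per cell cannot be told apart.

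The largest source of spread in the presynaptic genes was the individual MYC/SMARCA4 tumor. Their summed level was 21742, 10263, 1826 and 6256 CPM in tumors 1 to 4, 6624, 7196 and 6321 CPM in the P7 cerebella and 3541, 3744 and 4062 CPM in the SHH MB. Tumors 1 and 2 lay above all other libraries, tumor 4 just under the lowest P7 cerebellum, and tumor 3 under every SHH MB. Of the 42 genes, 37 were highest in tumor 1 and 39 lowest in tumor 3, and 35 followed the order tumor 1, 2, 4, 3. The ratio of the highest to the lowest tumor had a median of 12.3 over the genes and ran from 2.56 for Syn3 to 47.8 for Syt4. The same ratio had a median of 1.26 among P7 cerebella and 1.20 among SHH MB. Relative to the mean of the P7 cerebella, the median gene stood at a ratio of 3.02 in tumor 1, 1.26 in tumor 2, 0.253 in tumor 3 and 0.895 in tumor 4. Tumor 1 exceeded each P7 cerebellum in 35 of the genes, and tumor 3 lay under each in 41.

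**Figure D1:**
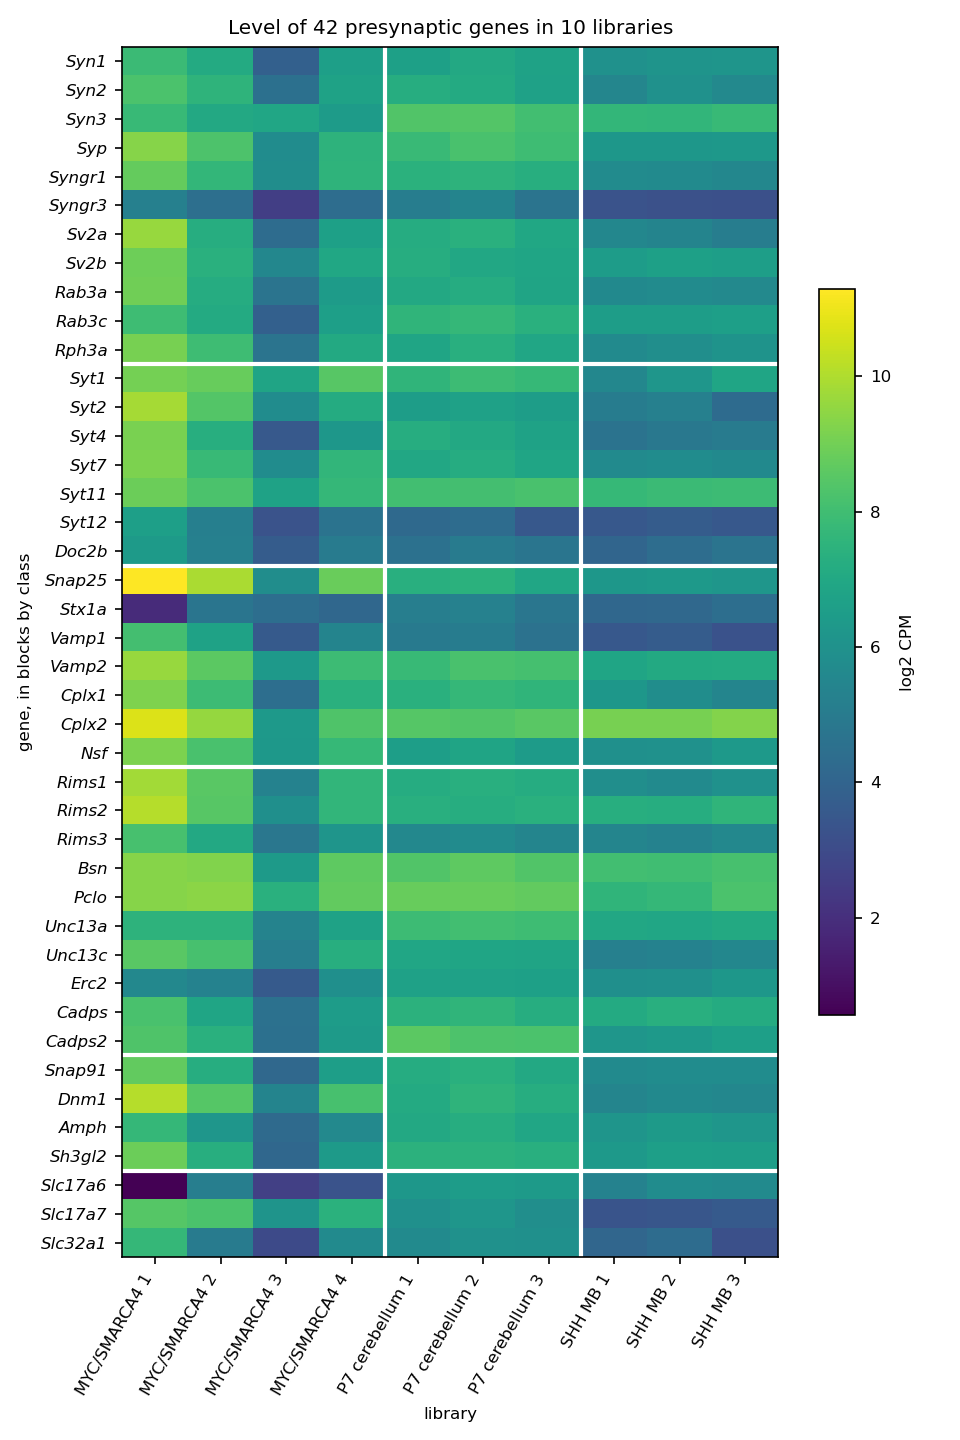
Heat map of the level of the 42 presynaptic genes (log2 CPM, colour scale) in the 10 libraries; genes are in blocks by class in the order vesicle membrane, calcium sensors, SNARE machinery, active zone, recycling and transmitter loading. Tumor 1 is the brightest column and tumor 3 the darkest of the 4 MYC/SMARCA4 columns in most genes, with Stx1a and Slc17a6 as dark cells in tumor 1.

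Markers of some cell types followed the order of this spread and others did not. Summed over 12 genes each, markers of mature granule neurons read 9830, 3548, 518 and 2247 CPM in tumors 1 to 4, those of Purkinje cells 13827, 3397, 448 and 2263 CPM, and those of GABAergic interneurons 3019, 841, 138 and 552 CPM. Myelinating oligodendrocytes, which hold no synaptic vesicles, followed the same order at 4178, 853, 128 and 471 CPM. In P7 cerebella these 4 lists summed to 1479 to 1806, 1746 to 1911, 713 to 743 and 969 to 1149 CPM. In SHH MB they summed to 740.0 to 840.1, 565 to 896, 325 to 461 and 134 to 405 CPM. Among defining markers, Gabra6 of mature granule neurons read 384, 173, 15.4 and 77.4 CPM in the tumors, Calb1 of Purkinje cells 1247, 173, 12.2 and 142 CPM, Gad1 of GABAergic neurons 648, 142, 16.5 and 120.0 CPM and Mbp of myelin 2269, 381, 33.7 and 173 CPM. None of these was at 0 in any library. Against P7 cerebella Gad1 had a log2 fold change of 1.19, but its list went both ways. Of the 12 interneuron genes, 5 had fitted values above P7 cerebella and 7 below, with a median log2 fold change of -0.37. Microglia (264, 135, 65.2 and 177 CPM) and endothelium (512, 224, 127 and 189.8 CPM) were also highest in tumor 1 and lowest in tumor 3. Astrocytes and Bergmann glia went another way, at 1187, 3017, 619.6 and 2326 CPM in the tumors. They summed to 2351 to 2433 CPM in P7 cerebella and 1834 to 2117 CPM in SHH MB. Tumors 1 and 3 lay below every library of both groups, with tumor 3 the lowest. A list meant for neurons outside the granule lineage summed to 947, 788, 323 and 426 CPM in the tumors, a narrower spread. It summed to 835 to 916 CPM in P7 cerebella and 631 to 763 CPM in SHH MB. The list includes Rbfox3, which granule neurons also express, so it does not set other neurons apart. In the tumors Rbfox3 read 616, 366, 113 and 197 CPM. It read 532 to 575 CPM in P7 cerebella and 441 to 578 CPM in SHH MB. The summed proliferation genes, given above, were lowest in tumor 1. Markers of GCPs summed to 1770, 1490, 846 and 1382 CPM in tumors 1 to 4, 2041 to 2118 CPM in P7 cerebella and 4229 to 5189 CPM in SHH MB. Unlike this sum, the defining GCP markers Atoh1 and Gli1 were lowest in tumor 1. Atoh1 read 0.491 (2 counts), 24.5, 31.2 and 3.39 CPM in the tumors. In P7 cerebella it read 17.2 to 29.5 CPM and in SHH MB 97.0 to 138 CPM. Gli1 read 8.35, 46.6, 57.7 and 111 CPM in the tumors. In P7 cerebella it read 49.2 to 56.3 CPM and in SHH MB 154 to 189 CPM. Ttr, the defining gene of the choroid plexus, was at 0.178 to 3.05 CPM in the tumors and 512 to 1088 CPM in P7 cerebella. The part of these cell types in the presynaptic levels was not tested.

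**Figure D2:**
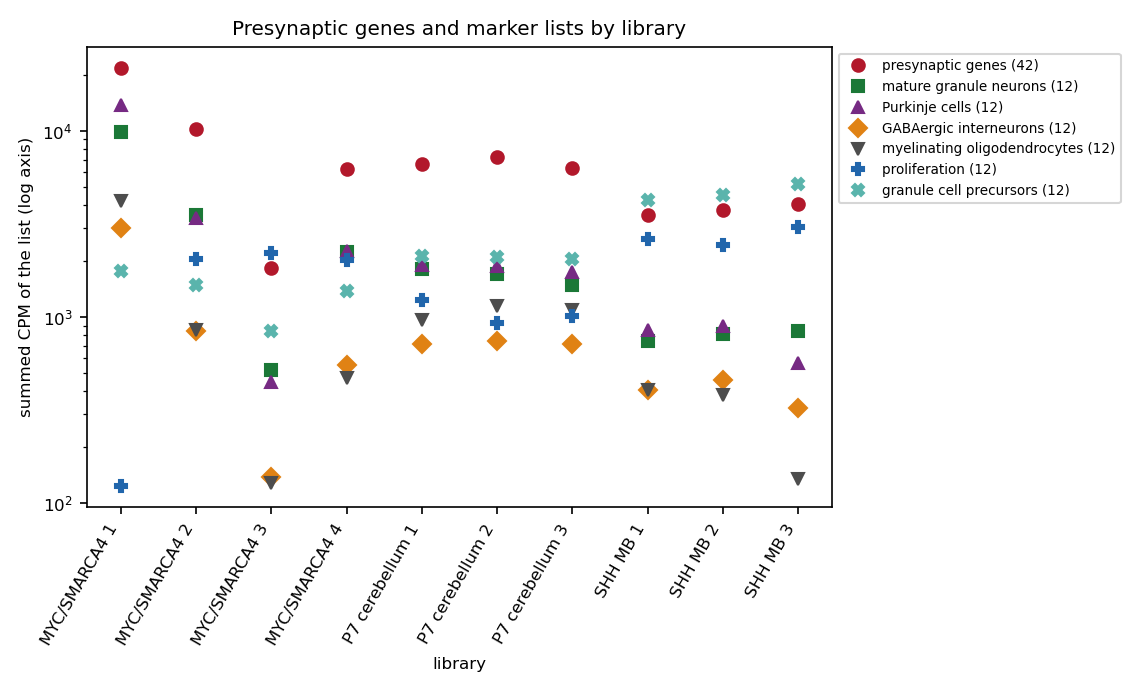
Summed CPM (log axis) of the 42 presynaptic genes and of 6 lists of 12 marker genes in each library; each point is 1 library and 1 list, and the number of genes in a list is in the legend. Presynaptic genes and the 4 lists of mature neurons and myelin are highest in tumor 1 and lowest in tumor 3, while proliferation genes are lowest in tumor 1.

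Each comparison below comes from 1 edgeR quasi-likelihood model of the 10 libraries together, and a gene was called at an adjusted p (Benjamini-Hochberg, over the 29952 genes) of at most 0.05. Because the groups share 1 estimate of spread, the large differences between the 4 tumors enter every comparison.

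Against P7 cerebella, 3 of the 42 genes passed the test in the MYC/SMARCA4 tumors. The glutamate transporter gene Slc17a7 rose, its relative Slc17a6 fell, and Syn3, a synapsin that tethers vesicles to actin, fell. Fitted values were above P7 in 31 genes and below in 11, with a median log2 fold change of 0.46 against -0.05 over all genes tested. The 1 call upward stands beside 3.99% of all genes tested and the 2 calls downward beside 2.27%. At an unadjusted p of at most 0.05, 7 genes were higher and 4 lower, where 25.2% of all genes passed in either direction. Under the stricter rule of the study (adjusted p up to 0.01, log2 fold change of 2.5 or more in size), none passed, beside 0.29% of all genes. No gene was higher in each tumor than in each P7 cerebellum, which held for 10.3% of all genes, and 5 were lower in each (Syn3, Stx1a, Unc13a, Erc2 and Slc17a6), which held for 10.7%. Single libraries decided these counts. Without tumor 1, 28 of 42 fitted values were below 0 and the median was -0.40. Then 1 gene was called higher (Slc17a7), where 9.64% of all genes were, and 7 lower (Syn3, Slc17a6, Amph, Cadps2, Erc2, Unc13a and Cadps), where 6.11% were. Without tumor 3, 14 were called higher beside 11.8% of all genes and 5 lower beside 22.8%, with Snap25, Nsf and Rims3 next after Slc17a7. Without tumor 2 no gene was called higher, where 1.77% of all genes were, and 1 (Slc17a6) lower, where 1.6% were. Without any 1 of the P7 cerebella none was called in either direction, but of all genes too only 0.109 to 0.264% were called higher and 0.5 to 0.641% lower. Without any 1 of the SHH MB none was called, beside 1.34 to 1.46% and 1.02 to 1.09% of all genes. The adjusted p was above 0.05 in 10 of 19 refits for Slc17a7, in 9 of 18 for Slc17a6 and in 13 of 19 for Syn3.

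Against SHH MB, 10 of the 42 genes were called higher in the MYC/SMARCA4 tumors and none lower, and DESeq2 also called none lower, where 4.09% of all genes were. They come from every class: Slc17a7; Syngr1; Syt1, Syt2 and Syt7; Snap25, Vamp1 and Nsf; Unc13c; and Dnm1. Among all genes tested, 2.43% were called higher and 2.26% lower. Fitted values were above SHH MB in 36 genes and below in 6, with a median log2 fold change of 1.56 against 0.01 over all genes. At an unadjusted p of at most 0.05, 25 were higher and 1 lower, where 19.8% of all genes passed. Under the stricter rule 1 gene passed, Slc17a7, beside 0.601% of all genes. The groups were apart in 4 genes that were higher in each tumor (Syngr1, Syt2, Syt7 and Slc17a7), where 7.83% of all genes were, and in 2 that were lower (Erc2 and Slc17a6), where 8.3% were. Without tumor 1, 31 fitted values were above SHH MB and 11 below, and the median was 0.71. The same 10 genes were called higher, beside 5.0% of all genes, and Syn3 and Slc17a6 were called lower, beside 4.75%. The log2 fold changes of the 10 were then lower, at 3.90 for Slc17a7, 2.45 for Syt2, 2.56 for Snap25, 2.14 for Dnm1, 2.10 for Vamp1, 1.83 for Unc13c, 1.79 for Syt1, 1.47 for Syt7, 1.41 for Syngr1 and 1.37 for Nsf. Without tumor 3 the count was 30 higher, beside 9.57% of all genes, and these held all 10. It was 2 (Slc17a7 and Syt2) without tumor 2, beside 1.29% of all genes, with Slc17a6 called lower beside 1.79%. It was 3 without any 1 of the P7 cerebella, beside 1.08 to 1.17% of all genes, and 1 (Slc17a7) without any 1 of the SHH MB, beside 0.166 to 0.188%. Slc17a7 was called in all 19 refits, while the adjusted p of the other 9 genes was above 0.05 in 4 to 10 of them.

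SHH MB lay below P7 cerebella in 40 of the 42 genes by fitted value, with a median log2 fold change of -1.01 against -0.09 over all genes. In the fit that shares its spread with the MYC/SMARCA4 tumors no gene was called, where 0.177% of all genes were called higher and 0.0467% lower. At an unadjusted p of at most 0.05, edgeR gave 14 lower and 0 higher, beside 8.8% of all genes in either direction, and DESeq2 called 2 lower (Slc17a7 and Syngr3), where 0.725% of all genes were. Without tumor 1, 6 were called lower beside 1.19% of all genes, and without tumor 3, 8 beside 0.874%. Slc17a7, Syngr1, Syngr3, Cadps2 and Syp were called in both of these fits. Without tumor 4 Slc17a7 alone was called lower, beside 19 of 29789 genes. In 36 genes each SHH MB lay under each P7 cerebellum, where 19.0% of all genes did, and in 1, Cplx2, above, where 17.8% did. A fit of these 6 libraries alone, whose spread comes only from the tight replicates of both groups, called 35 genes lower and 1 higher, beside 10.3% and 13.4% of all genes. In that fit Syt4, a calcium-independent synaptotagmin of dense vesicles, had a log2 fold change of -2.17 ± 0.14 (SE, adjusted p = 5.5e-12), and Cadps2, which primes dense core vesicles, -1.96 ± 0.13 (SE, adjusted p = 1.1e-11). Cplx2, a complexin that clamps and promotes fusion, was the gene called higher, at 0.74 ± 0.12 (SE, adjusted p = 2.5e-05).

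**Figure D3:**
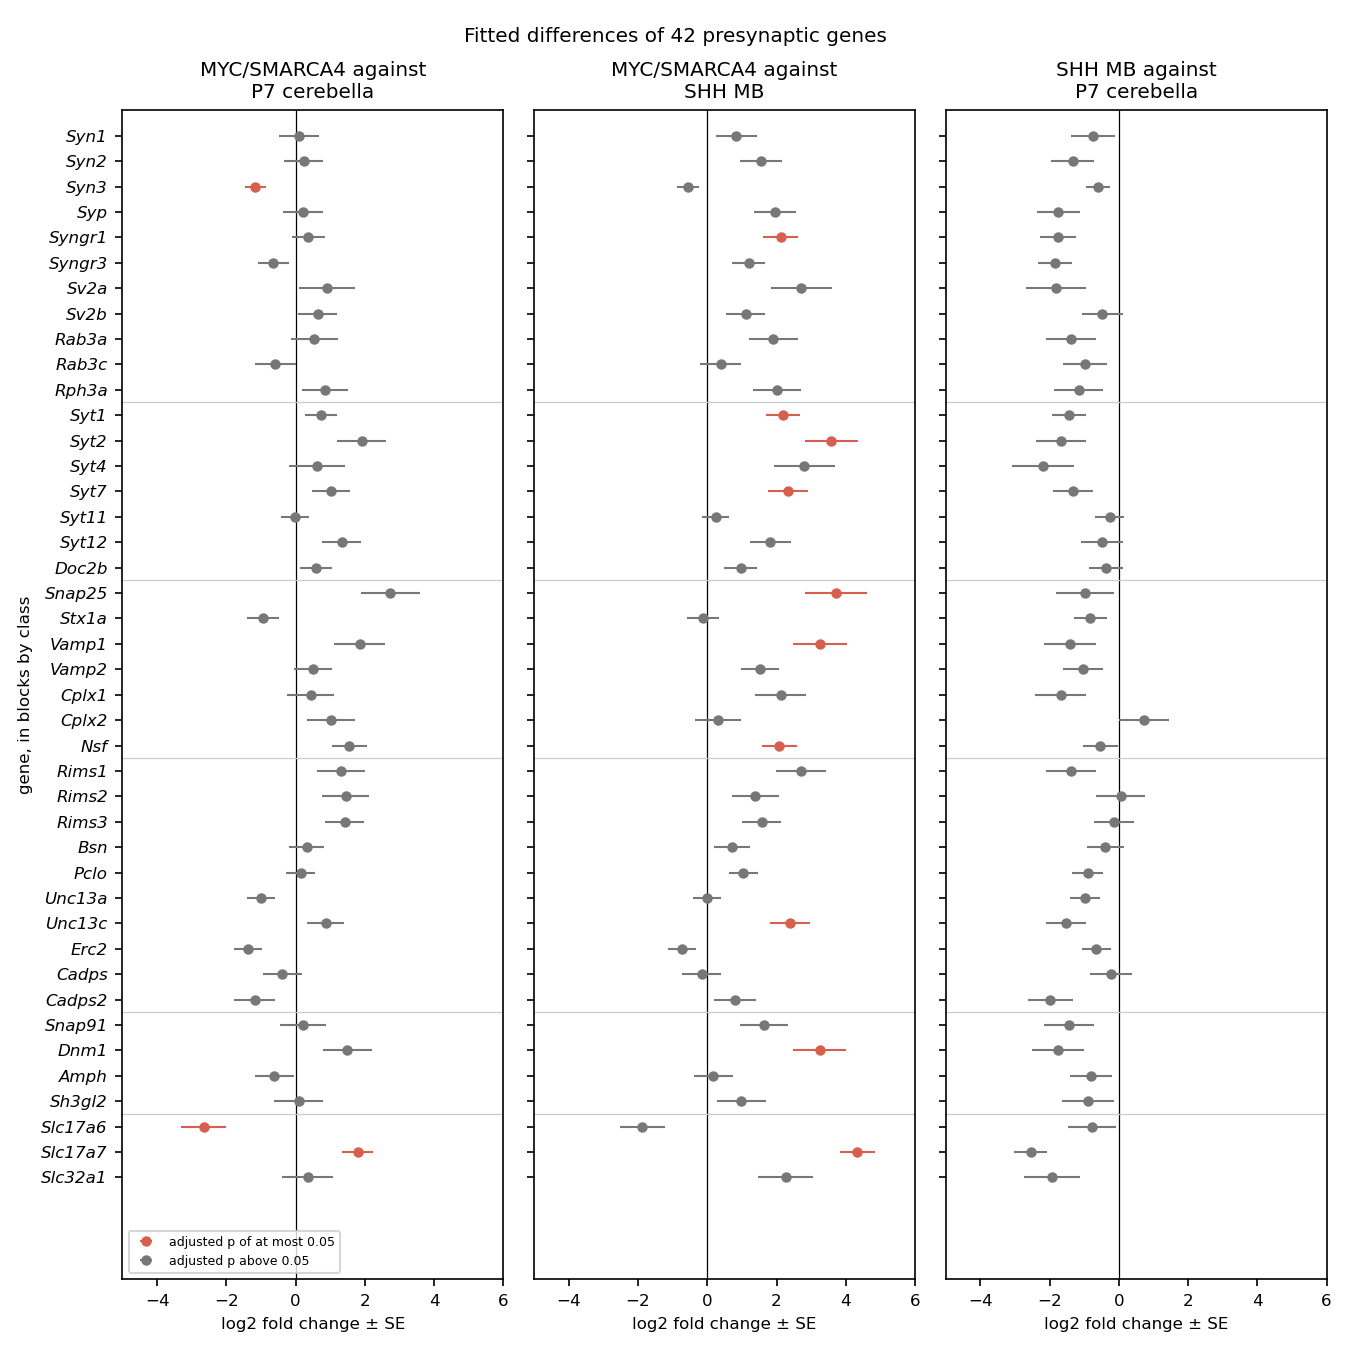
Fitted log2 fold change (points) with its SE (bars) of each of the 42 presynaptic genes in the 3 comparisons of the fit of all 10 libraries; red points have an adjusted p of at most 0.05 and thin lines part the classes. Red points number 3 against P7 cerebella, 10 against SHH MB and 0 between SHH MB and P7 cerebella, where 40 points lie left of 0.

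Of the 3 genes of transmitter loading, both glutamate transporter genes were called against P7 cerebella, in opposite directions. Of all genes tested, 3.99% were called higher in that comparison and 2.27% lower. Slc17a7 encodes VGLUT1 and lies at chr7:44813305-44825644 (GRCm39, plus strand). Its level was 348, 306, 69.4 and 171 CPM in tumors 1 to 4, 62.5, 74.0 and 57.6 CPM in P7 cerebella and 10.2, 10.9 and 12.1 CPM in SHH MB. Tumor 3 lay within the range of the P7 cerebella, the other tumors above it, and all 4 above each SHH MB. The log2 fold change was 1.79 ± 0.45 (SE, adjusted p = 0.036) against P7 cerebella and 4.34 ± 0.51 (SE, adjusted p = 0.00057) against SHH MB. Between SHH MB and P7 cerebella it was -2.55 ± 0.48 (SE, adjusted p = 0.060), and -2.53 ± 0.16 (SE, adjusted p = 2.8e-12) in the fit of those groups alone. Without tumor 1 the difference from P7 cerebella was 1.38 ± 0.38 (SE, adjusted p = 0.027). Slc17a6 encodes VGLUT2, lies at chr7:51271434-51320867 (GRCm39, plus strand) and stood at 1.47, 35.3, 5.97 and 9.92 CPM in the tumors, 75.1, 89.2 and 86.0 CPM in P7 cerebella and 39.6, 55.2 and 51.3 CPM in SHH MB. All 4 tumors lay below each library of the other groups. The log2 fold change was -2.66 ± 0.66 (SE, adjusted p = 0.035) against P7 cerebella, or -2.41 ± 0.48 (SE, adjusted p = 0.0049) without tumor 1, and -1.88 ± 0.65 (SE, adjusted p = 0.12) against SHH MB, where -1.67 ± 0.47 (SE, adjusted p = 0.042) was found without tumor 1. Both genes share exon sequence with a noncoding gene on the opposite strand, 5.6% of the exon length of Slc17a7 and 9.6% of that of Slc17a6. Per kilobase of exon, the mean level of Slc17a7 was 40.4 CPM in the tumors against 2.30 CPM for Slc17a6, and the order was opposite in P7 cerebella (11.7 against 14.6) and in SHH MB (1.99 against 8.51). Slc32a1, the transporter of inhibitory terminals (VGAT), was at 210.1, 32.5, 7.91 and 51.9 CPM in the tumors, 51.7 to 63.1 CPM in P7 cerebella and 9.15 to 20.6 CPM in SHH MB. It passed the test in none of the 3 comparisons.

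Because both glutamate transporter genes were counted in the same library, the share of Slc17a7 in their joint counts does not depend on library scaling. It was 99.6% (95% Wilson interval 99.1 to 99.8%) in tumor 1, 89.6% (95% Wilson interval 88.2 to 90.9%) in tumor 2, 92.1% (95% Wilson interval 89.5 to 94.1%) in tumor 3 and 94.5% (95% Wilson interval 93.3 to 95.6%) in tumor 4. In P7 cerebella it was 45.4% (95% Wilson interval 42.8 to 48.1%), 45.4% (95% Wilson interval 42.9 to 47.9%) and 40.1% (95% Wilson interval 37.1 to 43.1%), and in SHH MB 20.4% (95% Wilson interval 16.4 to 25.2%), 16.5% (95% Wilson interval 13.6 to 19.7%) and 19.1% (95% Wilson interval 15.7 to 23.0%). The 3 groups did not overlap, and tumor 3, lowest in most presynaptic genes, lay with the other tumors. The intervals cover counting error only, and the pair was chosen after its values were seen, so no test is given. Gabra6, which marks mature granule neurons, stood at 15.4 to 384 CPM in the tumors, 9.62 to 18.1 CPM in P7 cerebella and 2.25 to 3.51 CPM in SHH MB, and its part in the share was not tested.

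**Figure D4:**
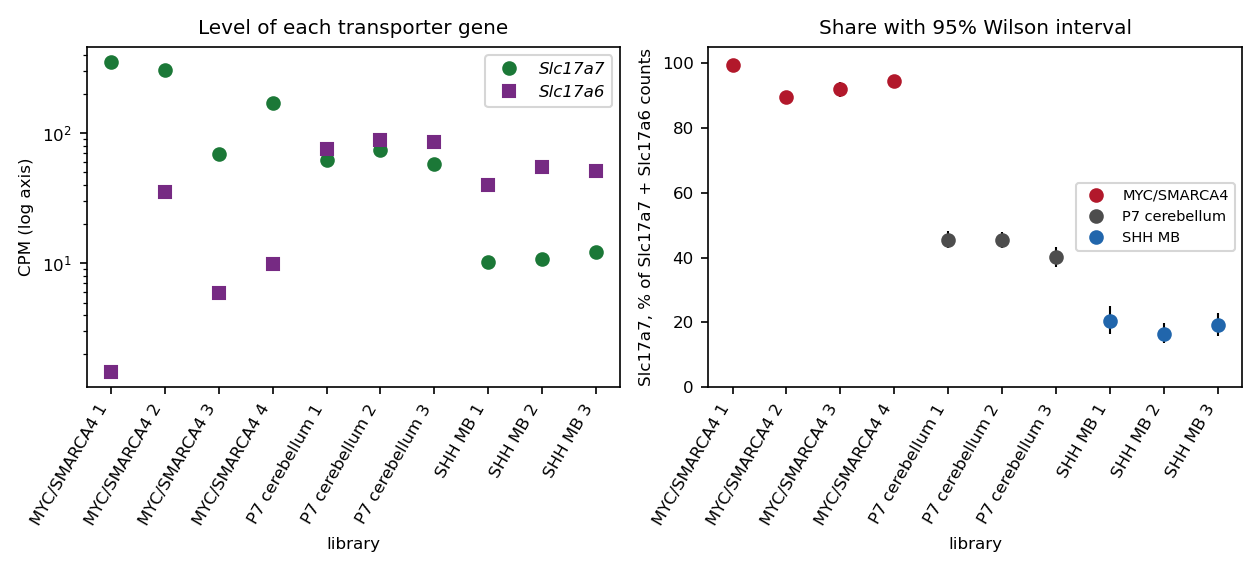
Left, level (CPM, log axis) of Slc17a7 and Slc17a6 in each library; right, Slc17a7 as a percentage of the joint counts of both genes, with bars for the 95% Wilson interval. The share lies above 89% in all 4 MYC/SMARCA4 tumors, between 40.1 and 45.4% in P7 cerebella and between 16.5 and 20.4% in SHH MB.

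The promoter windows of this pair are shown because the genes changed in opposite directions. RefSeq windows on GRCm38.p6 run from 250 bases before to 50 bases after a gene's start, and the table holds 43 windows for 33 of the 42 genes. The counts were made on GRCm39, so these coordinates do not apply to them. Capitals mark matches, on either strand, to 6 short motifs searched: the E-box CACGTG bound by MYC, the GC box GGGCGG, the cAMP response element TGACGTCA, the RE1 left portion TTCAGCACC and right portion GGACAGCGC bound by REST, a repressor of neuronal genes outside neurons, and the TATA box TATAAA. The window of Slc17a7 is chr7:45163671-45163970 on the plus strand and holds 3 matches to the GC box, of which the last pair share 1 base. The window of Slc17a6 is chr7:51621580-51621879, also on the plus strand, and holds 1 match to the GC box. A later start of Slc17a6 has a window with none of the motifs.
Slc17a7: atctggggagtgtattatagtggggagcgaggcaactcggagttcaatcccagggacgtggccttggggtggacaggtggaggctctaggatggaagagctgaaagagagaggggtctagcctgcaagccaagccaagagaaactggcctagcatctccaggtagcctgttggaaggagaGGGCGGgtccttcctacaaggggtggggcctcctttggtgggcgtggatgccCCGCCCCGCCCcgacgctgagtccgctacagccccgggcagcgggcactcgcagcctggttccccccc
Slc17a6: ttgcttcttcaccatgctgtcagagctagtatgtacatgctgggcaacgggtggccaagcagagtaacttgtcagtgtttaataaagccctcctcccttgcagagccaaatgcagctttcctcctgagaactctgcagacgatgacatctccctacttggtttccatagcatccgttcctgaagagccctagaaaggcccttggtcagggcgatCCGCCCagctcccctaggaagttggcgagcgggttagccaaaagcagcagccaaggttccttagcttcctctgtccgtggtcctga

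Over the gene set, the GC box was found in 62.8% of the windows against 35.7% of the 32851 windows in the table, and the median GC content was 61.3% against 52.7%. The E-box was found in 6.98% (Cadps2, Nsf and Sv2b) against 7.15% of all. The cAMP response element was in 4.65% (Sh3gl2 and Syn1) against 1.79% of all, and the TATA box in 4.65% (2 of the 4 windows of Sv2b) against 13.6%. The left RE1 portion was in 4.65% (Syn1 and Unc13a) against 0.371% of all, and the right in 2.33% (Unc13a) against 0.405%. Matches are letters in a window and not binding sites. The windows of Syn1 (chrX:20920869-20921168, minus strand) and Unc13a (chr8:71671708-71672007, minus strand) are shown because they hold the RE1 portions, which in Unc13a are read on the opposite strand, together with the cAMP response element in Syn1 and 2 GC boxes in Unc13a.
Syn1: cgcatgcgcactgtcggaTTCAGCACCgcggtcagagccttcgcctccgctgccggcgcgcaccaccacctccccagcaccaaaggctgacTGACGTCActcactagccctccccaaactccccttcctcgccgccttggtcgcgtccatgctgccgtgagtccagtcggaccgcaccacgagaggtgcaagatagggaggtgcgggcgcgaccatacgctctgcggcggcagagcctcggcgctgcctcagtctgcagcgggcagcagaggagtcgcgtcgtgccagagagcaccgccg
Unc13a: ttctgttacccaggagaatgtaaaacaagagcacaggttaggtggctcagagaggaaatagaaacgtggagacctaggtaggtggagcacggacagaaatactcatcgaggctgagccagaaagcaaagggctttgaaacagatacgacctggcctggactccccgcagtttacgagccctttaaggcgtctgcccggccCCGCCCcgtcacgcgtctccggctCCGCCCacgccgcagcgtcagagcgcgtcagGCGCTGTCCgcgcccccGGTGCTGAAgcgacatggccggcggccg

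Among the 11 vesicle membrane and tethering proteins, against P7 cerebella 8 fitted values were higher and 3 lower (median log2 fold change 0.23), with 1 call. Against SHH MB 10 were higher and 1 lower (median 1.56), also with 1 call. Of all genes tested, 3.99% were called higher and 2.27% lower against P7 cerebella. The shares against SHH MB were 2.43% and 2.26%. Syn3, the synapsin with the lowest values relative to P7 cerebella, stood at 224, 132, 120.5 and 87.6 CPM in the tumors, 337, 346 and 262 CPM in P7 cerebella and 204, 196 and 221 CPM in SHH MB. Each tumor lay below each P7 cerebellum, and its log2 fold change was -1.16 ± 0.32 (SE, adjusted p = 0.048). Without tumor 1 it was -1.56 ± 0.23 (SE, adjusted p = 0.00091). Syn3 lies at chr10:85884617-86334773 (GRCm39, minus strand), where its exons overlap Fbxo7 and Timp3 on the opposite strand, the larger overlap taking 14.6% of its exon length. The strand setting of the counting is not given in the sources used here, so reads of these genes cannot be told apart from its own. Syn1 and Syn2, its paralogs, had log2 fold changes of 0.10 and 0.23 against P7 cerebella, with adjusted p of 0.92 and 0.81. Syngr1, a synaptogyrin of the vesicle membrane, was at 434, 200.4, 56.5 and 184 CPM in the tumors, 170.4, 180.5 and 157 CPM in P7 cerebella and 52.8, 52.4 and 46.1 CPM in SHH MB. It was higher in each tumor than in each SHH MB, by tumor 3 only narrowly, with a log2 fold change of 2.12 ± 0.51 (SE, adjusted p = 0.034), and overlapped with the P7 cerebella. Sv2a, a vesicle glycoprotein, had the highest fitted values of the class and the widest spread, at 807, 153, 20.5 and 102 CPM in the tumors, 124 to 164 CPM in P7 cerebella and 34.8 to 46.0 CPM in SHH MB. It was not called against either group, with log2 fold changes of 0.89 ± 0.81 (SE, adjusted p = 0.48) and 2.71 ± 0.88 (SE, adjusted p = 0.10). The other genes of the class were called in neither comparison. They are Syp, the vesicle protein synaptophysin, Syngr3, Sv2b, the small GTPases Rab3a and Rab3c, the Rab3 effector Rph3a and the synapsin pair above. Of these, Rab3a overlaps Mpv17l2 on the opposite strand in 18.0% of its exon length. Their log2 fold changes ran from -0.64 for Syngr3 to 0.86 for Rph3a against P7 cerebella, and from 0.39 for Rab3c to 2.02 for Rph3a against SHH MB.

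Calcium sensors trigger fusion once calcium enters the terminal. All 7 fitted values were above SHH MB (median 2.18) with 3 calls, beside 2.43% of all genes called higher. Against P7 cerebella 6 of 7 were above (median 0.74) with no call, beside 3.99% of all genes higher and 2.27% lower. Syt2, a fast sensor of inhibitory and brainstem synapses, was at 911, 344, 55.1 and 143 CPM in the tumors, 93.6, 103 and 92.7 CPM in P7 cerebella and 33.9, 37.2 and 19.7 CPM in SHH MB. Each tumor exceeded each SHH MB, with a log2 fold change of 3.58 ± 0.77 (SE, adjusted p = 0.021), and only tumor 3 lay below the P7 cerebella. Syt1, the main fast sensor of forebrain synapses, was at 531, 440.5, 115 and 360.1 CPM in the tumors, 192, 242 and 215 CPM in P7 cerebella and 46.6, 73.9 and 118 CPM in SHH MB. Tumor 3 lay inside the range of the SHH MB and the other tumors above it, with a log2 fold change of 2.18 ± 0.48 (SE, adjusted p = 0.024). Syt7, the sensor for slow and asynchronous release, read 585, 225, 55.4 and 198 CPM in the tumors, 126, 147 and 118 CPM in P7 cerebella and 52.0, 54.5 and 50.7 CPM in SHH MB. The gap between tumor 3 and the highest SHH MB was under 1 CPM, and the log2 fold change was 2.34 ± 0.58 (SE, adjusted p = 0.038). Syt11, a synaptotagmin that does not bind calcium, was at 477, 302, 107 and 211 CPM in the tumors, 267 to 298 CPM in P7 cerebella and 218 to 244 CPM in SHH MB. It had the lowest fitted values of the class, with log2 fold changes of -0.02 against P7 cerebella and 0.24 against SHH MB. Syt4 and Syt12, which also lack calcium binding, and Doc2b, a high-affinity calcium sensor, were not called, with log2 fold changes against SHH MB of 2.81, 1.82 and 0.97.

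SNARE proteins pull the vesicle onto the plasma membrane. Of these 7 genes, 6 had fitted values above P7 cerebella (median 1.03) and 6 above SHH MB (median 2.08). There was no call in the first comparison, beside 3.99% of all genes called higher and 2.27% lower. In the second, 3 were called higher, beside 2.43% of all genes. Snap25, a SNARE of the plasma membrane, had the highest fitted value of all 42 genes against P7 cerebella. It was at 2507, 977, 56.4 and 459 CPM in the tumors, 162, 170.1 and 119 CPM in P7 cerebella and 76.5, 80.0 and 72.4 CPM in SHH MB. Tumor 3 lay under both other groups while tumors 1, 2 and 4 lay above them, and the log2 fold change was 2.73 ± 0.85 (SE, adjusted p = 0.074) against P7 cerebella and 3.71 ± 0.89 (SE, adjusted p = 0.034) against SHH MB. Without tumor 3 the first was 2.90 ± 0.46 (SE, adjusted p = 0.0031). Vamp1, a SNARE of the vesicle, was at 273, 107, 12.1 and 42.7 CPM in the tumors, 24.3 to 34.0 CPM in P7 cerebella and 9.72 to 12.9 CPM in SHH MB, with a log2 fold change of 3.26 ± 0.78 (SE, adjusted p = 0.034) against SHH MB. Its tumor 3 value lay inside the range of the SHH MB. Nsf, the ATPase that takes spent SNARE complexes apart, was at 579, 292, 78.4 and 213 CPM in the tumors, 88.3 to 113 CPM in P7 cerebella and 60.9 to 80.3 CPM in SHH MB, again with tumor 3 inside the range of the SHH MB. Its log2 fold change was 2.08 ± 0.51 (SE, adjusted p = 0.037) against SHH MB. Stx1a, the syntaxin partner of Snap25, had the lowest fitted values of the class, at 3.69, 26.6, 21.7 and 17.8 CPM in the tumors, 35.2, 38.6 and 27.3 CPM in P7 cerebella and 17.4, 18.3 and 21.4 CPM in SHH MB. Against the order of most genes it was lowest in tumor 1 (15 counts), and each tumor lay below each P7 cerebellum without passing the test (log2 fold change -0.94 ± 0.45, adjusted p = 0.21). The vesicle SNARE Vamp2 and the complexins Cplx1 and Cplx2 were not called, with log2 fold changes against SHH MB of 1.53, 2.12 and 0.31.

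The active zone is the scaffold where vesicles dock and are primed. Its 10 genes were divided, with 6 fitted values above P7 cerebella and 4 below (median 0.23), and 7 above SHH MB and 3 below (median 0.92). Against SHH MB 1 was called higher, beside 2.43% of all genes. Against P7 cerebella none was called, beside 3.99% of all genes higher and 2.27% lower. Unc13c, a Munc13 priming factor of the cerebellum, was the 1 gene called, at 376, 287, 35.7 and 158 CPM in the tumors, 119.8, 118 and 114 CPM in P7 cerebella and 37.2, 39.6 and 45.8 CPM in SHH MB. Tumor 3 lay just under the SHH MB and the other tumors above all other libraries, with a log2 fold change of 2.39 ± 0.58 (SE, adjusted p = 0.035) against SHH MB. Its paralog Unc13a had the opposite sign against P7 cerebella, at 178, 181, 41.4 and 106 CPM in the tumors and 244, 267 and 248 CPM in P7 cerebella. Each tumor lay below each P7 cerebellum, with a log2 fold change of -1.002 ± 0.40 (SE, adjusted p = 0.14), and 16.7% of its exon length overlaps Colgalt1 on the opposite strand. Erc2, a scaffold protein of the active zone, was at 47.9, 39.4, 12.1 and 59.8 CPM in the tumors, 104, 105 and 101 CPM in P7 cerebella and 59.9, 61.8 and 75.9 CPM in SHH MB. Each tumor lay below each library of both other groups, but tumor 4 only narrowly below the lowest SHH MB (59.8 against 59.9 CPM). The log2 fold change was -1.38 ± 0.40 (SE, adjusted p = 0.057) against P7 cerebella and -0.73 ± 0.40 (SE, adjusted p = 0.34) against SHH MB. Rims1 and Rims2 are scaffolds that tie calcium channels to docked vesicles, and Rims2 had the highest fitted value of the class against P7 cerebella and Rims1 against SHH MB. Rims1 was at 892, 371, 39.7 and 200.1 CPM in the tumors and 52.1 to 63.1 CPM in SHH MB (log2 fold change 2.70 ± 0.73, adjusted p = 0.054), and Rims2 at 1105, 363, 60.7 and 199.8 CPM in the tumors and 154 to 165 CPM in P7 cerebella (log2 fold change 1.44 ± 0.68, adjusted p = 0.21). Neither passed the test. Rims3, the large scaffolds Bsn (bassoon) and Pclo (piccolo), and the dense core vesicle priming factors Cadps and Cadps2 were not called. Their log2 fold changes ran from -1.18 for Cadps2 to 1.42 for Rims3 against P7 cerebella.

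Endocytosis returns vesicle membrane after fusion. All 4 fitted values were above SHH MB (median 1.32), with 1 call, beside 2.43% of all genes called higher. Against P7 cerebella 3 were above (median 0.14) with no call, beside 3.99% of all genes higher and 2.27% lower. Dnm1, the neuronal dynamin that cuts endocytic vesicles free, was at 1104, 358, 42.8 and 284 CPM in the tumors, 141, 184 and 153 CPM in P7 cerebella and 44.0, 50.2 and 46.8 CPM in SHH MB. Tumor 3 lay just below the SHH MB and the other tumors above every library of both groups, with a log2 fold change of 3.25 ± 0.77 (SE, adjusted p = 0.032) against SHH MB. Amph, amphiphysin, which brings dynamin to the membrane, had the lowest values of the class, at 209, 74.2, 19.2 and 48.6 CPM in the tumors and 131, 151 and 121 CPM in P7 cerebella. Only tumor 1 was above the P7 cerebella, with a log2 fold change of -0.62 ± 0.56 (SE, adjusted p = 0.48). Snap91, a clathrin adaptor, and Sh3gl2, endophilin A1, were not called, with log2 fold changes against SHH MB of 1.64 and 0.99.

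The profile among the 42 genes can be read apart from the level that all of them share in a library. For this, the median log2 CPM of the 42 genes was taken from each gene's log2 CPM in the same library. The genes below were picked after these values were seen, and no test is given. Snap25 stood 2.48, 2.49, 1.05 and 2.12 above the median gene in tumors 1 to 4, -0.02 to 0.14 in P7 cerebella and 0.16 to 0.47 in SHH MB. Slc17a7 stood at -0.37 to 1.35 in the tumors, -1.23 to -1.06 in P7 cerebella and -2.44 to -2.40 in SHH MB. On this scale tumor 3, with the lowest summed level, lay on the side of the other tumors in both genes. Syt2 (0.44 to 1.02 against -0.65 to -0.37 and -1.71 to -0.70), Nsf (0.36 to 1.53 against -0.62 to -0.44 and 0.09 to 0.30), Vamp1 (-1.30 to -0.70 against -2.29 to -2.20 and -2.71 to -2.21) and Dnm1 (0.66 to 1.43 against -0.07 to 0.34 and -0.47 to -0.26) were likewise higher in each tumor than in each library of P7 cerebella and SHH MB. In the other direction, Cadps2 lay at -0.48 to -0.09 in the tumors, 1.01 to 1.38 in P7 cerebella and 0.39 to 0.61 in SHH MB. Cadps (-0.59 to -0.20 against 0.24 to 0.32 and 1.16 to 1.40), Erc2 (-3.22 to -0.82 against -0.59 to -0.25 and 0.03 to 0.22) and Unc13a (-1.33 to 0.61 against 0.73 to 1.05 and 0.99 to 1.21) were lower in each tumor. Slc17a6, at -8.01 to -2.13 in the tumors, lay below its values in P7 cerebella (-0.97 to -0.48) and SHH MB (-0.47 to -0.13).

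**Figure D5:**
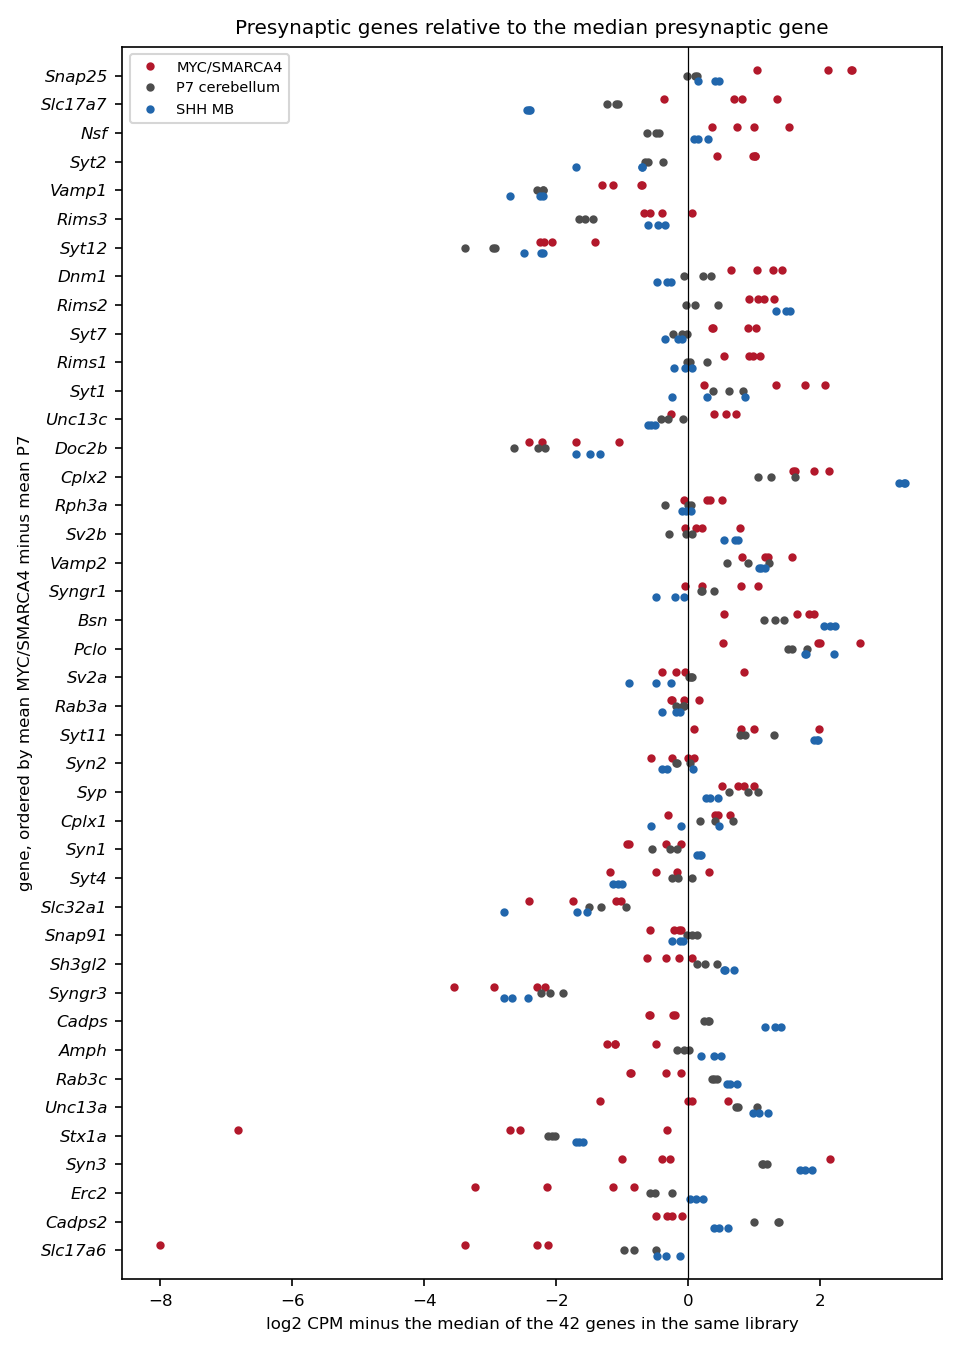
Each of the 42 presynaptic genes in each library as log2 CPM minus the median log2 CPM of the 42 genes in that library (x axis); points are libraries, coloured by group, and genes are ordered by the difference between the means of the MYC/SMARCA4 tumors and the P7 cerebella. Snap25 and Slc17a7 are at the top, where all 4 tumors lie right of the P7 cerebella, and Slc17a6 is at the bottom.

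Shares within other pairs of related genes, also chosen after their values were seen, do not depend on library scaling either. Unc13c made up 46.3 to 67.8% of the joint counts of Unc13c and Unc13a in the tumors, 30.7 to 32.9% in P7 cerebella and 22.5 to 25.1% in SHH MB. Rab3a made up 47.5 to 67.2% of Rab3a and Rab3c in the tumors, 40.8 to 42% in P7 cerebella and 33.4 to 36.1% in SHH MB. In both pairs, and in Vamp1 over Vamp2 (12.9 to 25.7%, 7.99 to 12.5% and 6.61 to 8.79%), the tumors were above both other groups. Cadps2 over Cadps (48.4 to 58.6%, 62.0 to 68.7% and 34.3 to 40.5%) placed the tumors between P7 cerebella and SHH MB. Cplx1 over Cplx2 was 20.8 to 34.1% in the tumors, 32.1 to 38.8% in P7 cerebella and 6.49 to 12.5% in SHH MB, so that SHH MB stood apart. Syt2 over Syt1, Sv2a over Sv2b and Syn2 over Syn1 overlapped between the tumors and at least 1 other group.

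A wider list of 96 presynaptic genes by the same roles, outside the 42, had 95 in the count table, all tested. Against P7 cerebella 62 fitted values were higher and 33 lower (median 0.28), with 3 called higher and 4 lower, which is 3.16% and 4.21% of the list beside the shares of all genes given above (3.99% and 2.27%). The calls upward included Gls2, a glutaminase that makes glutamate, and Syngr2, a synaptogyrin also found outside neurons. Gls2 was at 20.9, 19.6, 15.4 and 23.1 CPM in the tumors and 4.81 to 7.58 CPM in P7 cerebella, with a log2 fold change of 1.58 ± 0.31 (SE, adjusted p = 0.015). Each tumor, tumor 3 included, was above each P7 cerebellum. Syngr2 was at 14.2, 55.3, 62.5 and 85.8 CPM in the tumors and 6.89 to 15.1 CPM in P7 cerebella. Its log2 fold change was 2.25 ± 0.51 (SE, adjusted p = 0.025), and tumor 1, the lowest, lay inside the range of the P7 cerebella. The calls downward were Rab3d (log2 fold change -1.12 ± 0.24, adjusted p = 0.021), Sh3gl3 (log2 fold change -1.16 ± 0.27, adjusted p = 0.027), Syt6 (log2 fold change -1.25 ± 0.33, adjusted p = 0.043) and Slc17a8, which encodes VGLUT3 (log2 fold change -1.63 ± 0.45, adjusted p = 0.048). Slc17a8 had few counts, at 9, 5, 32 and 19 in tumors 1 to 4 (0.892 to 4.44 CPM). In P7 cerebella it had 60 to 80 (6.18 to 8.66 CPM). Against SHH MB 77 were higher and 18 lower (median 0.59), with 9 called higher and 0 lower, or 9.47% of the list called higher beside 2.43% of all genes. At an unadjusted p of at most 0.05 edgeR gave 33 higher and 4 lower, beside 19.8% of all genes in either direction, and DESeq2 called 23 higher and 0 lower, beside 7.87% and 4.09% of all genes. The lowest p-values were those of Gls2 (log2 fold change 2.23 ± 0.32, adjusted p = 0.0022), Rims4, a RIM protein (log2 fold change 2.72 ± 0.40, adjusted p = 0.0028), and Sv2c, a vesicle glycoprotein (log2 fold change 2.03 ± 0.40, adjusted p = 0.015). The lower values with the lowest p, of Doc2a (log2 fold change -1.37 ± 0.49, adjusted p = 0.14), Slc17a8 (log2 fold change -1.20 ± 0.45, adjusted p = 0.16) and Sh3gl3 (log2 fold change -0.66 ± 0.27, adjusted p = 0.19), did not pass the test. Between SHH MB and P7 cerebella 18 were higher and 77 lower (median -0.41), with 0 called by edgeR in the fit of all libraries, 13 lower and 0 higher at an unadjusted p of at most 0.05 (beside 8.8% of all genes), and 3 lower called by DESeq2 (beside 0.725%).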

How the data were processed

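RNA from FFPE tissue was sequenced as total RNA in 4 MYC/SMARCA4 tumors, 3 P7 cerebella and 3 SHH MB. The deposited counts, per the labels and the study's methods, were made by the authors from single-end reads with FastQC 0.73, Trimmomatic 0.38.1, STAR 2.7.8a to GRCm39 and featureCounts 2.0.1, as whole reads per gene, 1 table per library. The authors also deposited log2 values after a variance-stabilizing transformation (VST) by DESeq2 2.11.40.7 over all 10 libraries, used here only in an alternative. The annotation and strand setting are not given in the sources used here.

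Counts were filtered with filterByExpr, scaled by TMM and fitted with edgeR 4.0.16 (R 4.3.3) in a single quasi-likelihood model of the 3 groups (common dispersion 0.178). The SE of a log2 fold change is its size over the square root of the F statistic. Adjusted p-values are those of edgeR's quasi-likelihood test with Benjamini-Hochberg adjustment over 29952 genes unless another tool is named. On simulated counts for the comparison of tumors with P7 cerebella, it recovered 181 of 200 altered genes (log2 fold change of size 4) among 29952, with 6 false calls, DESeq2 190 with 38, and limma 179. The simulation gave all groups the same spread and tried no smaller change. The real tumors were spread more widely than the other groups, so these counts need not hold for the real comparisons. Alternatives were DESeq2 1.42.0, limma 3.58.1 on the VST values, RLE size factors, library sizes without 110 mitochondrial and rRNA-like genes, other filters, the groups compared alone, robust estimation, a replicate block, each library left out, and other thresholds.

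Libraries held 5663491 to 9352109 counts, which sets the floor of 3 counts at 0.304 to 0.737 CPM. Shares within gene pairs carry 95% Wilson intervals. No replicates agreed within sampling noise: chi-square per degree of freedom between replicates was at least 4.10. Nothing says whether replicates of P7 cerebella or SHH MB came from separate litters, so p-values measure the spread between these samples. Exon length and overlaps came from GENCODE on GRCm39, and promoter windows from RefSeq on GRCm38.p6, with 9 genes not matched.

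The 42 genes, the classes, the 96 further presynaptic genes and the marker lists were chosen with earlier results of these data known. Genes described library by library are, in each class, those called in any comparison and those with the highest and lowest log2 fold change against P7 cerebella or SHH MB, with Slc32a1 and Unc13a added after their values were seen. From the further list the 3 genes with the lowest p in each direction are named, and Slc17a8 besides, after its values were seen. Of the named genes of that list, 1 is not reported here. P-values adjusted over the list alone are not given for these lists.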

Additional observations from a re-analysis of the deposited data

Results flagged for a closer look

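The summed level of 12 proliferation genes in tumor 1 lay far from the other MYC/SMARCA4 tumors. On the log2 scale the gap from tumor 1 to the nearest tumor was 0.967 of the whole range of the group, above the critical value of Dixon's test for 4 samples. Chance alone would mark about 1 in 20 groups in this way. The same rule was run on each of the 42 genes, on their sum and on the 11 marker lists. It marked this value alone, and with so many values 1 mark by chance would not be unusual. Tumor 1 also held the highest level of 37 of the 42 presynaptic genes, and the counts of calls and the called genes are also given without it.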

How the results depend on the processing

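The counts of presynaptic genes called depended on the tool and on single libraries, while the median log2 fold change against SHH MB stayed above 0 (0.71 without tumor 1 against 1.56 as reported) and that of SHH MB against P7 cerebella below 0 in all 19 refits. Against P7 cerebella, 1 was called higher and 2 lower as reported. DESeq2 called 5 higher and 3 lower, beside 3143 and 1342 of 30237 genes. Limma on the deposited VST values called 0 and 1, beside 758 and 663 of 29952. RLE size factors gave 1 and 1, beside 1230 and 651 of 29952. Library sizes without mitochondrial and rRNA-like genes gave 1 and 1, beside 1204 and 668 of 29952. No filter on low counts gave 2 and 1, beside 1063 and 530 of 47925. A fit of the 2 groups only gave 0 and 0, beside 58 and 171 of 28171. Requiring at least 10 counts in every library gave 1 and 3, beside 835 and 1031 of 15814 genes. An unadjusted p gave 7 and 4, and the stricter rule 0 and 0. Leaving out 1 library gave 0 to 14 higher and 0 to 7 lower, and medians of -0.40 to 0.61; limma on VST values gave a median of -0.058. Against SHH MB, with 10 higher and 0 lower as reported, DESeq2 called 21 higher, beside 2014 of 25606 genes. Limma called 3, beside 402 of 29952, and the 2 groups only 1, beside 88 of 26134. An unadjusted p gave 25 higher and 1 lower, and the stricter rule 1 higher. Leaving out 1 library gave 1 to 30 higher and 0 to 2 lower. Between SHH MB and P7 cerebella, with 0 as reported, the 2 groups only gave 1 higher and 35 lower. Of all 29018 genes in that fit, 3884 were called higher and 2999 lower. DESeq2 gave 2 lower, beside 132 of 18207 genes. At least 10 counts gave 1 lower, beside 63 of 15814, and no filter 1 lower, beside 12 of 47925. An unadjusted p gave 14 lower, and leaving out 1 library 0 to 8 lower. The 2-group fit has fewer samples and takes no spread from the MYC/SMARCA4 tumors; the cause of the other changes was not tested. Slc17a7 passed against SHH MB in all 19 refits, with an adjusted p of 7.4e-17 to 0.0082. Robust estimation left each count as reported.

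Replicate numbers carried no pairing: deviations of libraries with the same number correlated at -0.27 to 0.16. A replicate block gave 0 higher and 0 lower against P7 cerebella, beside 165 and 206 of 29952 genes. Against SHH MB it gave 2 higher, beside 231 of 29952. Between SHH MB and P7 cerebella it gave 0, beside 16 higher and 3 lower of 29952.

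Log2 fold changes of single genes changed sign in these cases, none of them of a gene called as reported. With at least 10 counts in every library, against P7 cerebella Bsn -0.038, Pclo -0.19, Sh3gl2 -0.31, Slc32a1 -0.045, Snap91 -0.18, Syn1 -0.28, Syn2 -0.14 and Syp -0.16 and against SHH MB Amph -0.11 and Syt11 -0.017 and between SHH MB and P7 cerebella Rims2 -0.031. With limma on the VST values, against P7 cerebella Cplx1 -0.25, Pclo -0.00036, Rab3a -0.13, Sh3gl2 -0.66, Slc32a1 -0.41, Snap91 -0.45, Sv2a -0.11, Syn1 -0.36, Syn2 -0.20, Syp -0.22 and Syt4 -0.38 and against SHH MB Amph -0.28, Cplx2 -0.39 and Rab3c -0.13. With the 2 groups only, against P7 cerebella Sh3gl2 -0.15, Snap91 -0.023 and Syn1 -0.092. With the replicate block, against P7 cerebella Sh3gl2 -0.14, Slc32a1 -0.39, Snap91 -0.054 and Syn1 -0.11. With DESeq2, against P7 cerebella Syt11 0.045 and against SHH MB Unc13a 0.010. With RLE size factors, against P7 cerebella Syt11 0.013. Without the filter, against P7 cerebella Syt11 0.034. Leaving out a library gave these ranges of log2 fold change where a sign changed: against P7 cerebella Bsn -0.052 to 0.50, Cplx1 -0.53 to 0.59, Doc2b -0.11 to 0.68, Pclo -0.14 to 0.27, Rab3a -0.71 to 0.66, Rph3a -0.076 to 1.02, Sh3gl2 -1.10 to 0.23, Slc32a1 -1.05 to 0.61, Snap91 -0.86 to 0.35, Sv2a -0.78 to 1.09, Sv2b -0.36 to 0.73, Syn1 -0.56 to 0.28, Syn2 -0.45 to 0.39, Syngr1 -0.32 to 0.48, Syp -0.61 to 0.35, Syt11 -0.53 to 0.047, Syt4 -0.83 to 0.75 and Vamp2 -0.27 to 0.62, and against SHH MB Amph -0.84 to 0.30, Cadps2 -0.056 to 0.97, Cplx2 -0.70 to 0.48, Rab3c -0.33 to 0.58, Sh3gl2 -0.23 to 1.15, Stx1a -0.38 to 0.089, Syt11 -0.30 to 0.33 and Unc13a -0.37 to 0.13, and between SHH MB and P7 cerebella Rims2 -0.023 to 0.13.

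With 3 or 4 samples per group and a ratio of up to 47.8 between tumors, small differences from P7 cerebella were not detectable. FFPE RNA is fragmented, which can favour some transcripts over others. Reads were counted without a stated strand setting, so exons shared with a gene on the other strand can add to a level.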
